A study of Mus musculus with 6 samples.

Results

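Basement membrane and matrix genes were examined in undifferentiated mouse embryonic stem cells (mESCs) with and without huntingtin. The 10 genes, taken by symbol from the 23412 genes of the deposited table, were the laminin chains Lama1, Lama5, Lamb1 and Lamc1, the type IV collagen chains Col4a1 and Col4a2, the linker Nid1, and Sparc, Fn1 and Spp1. All 10 were detected in every library and passed the filter on low values.

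RNA-seq was done on 2 mESC lines of strain 129Sv. R1 is the parental wild type line. HN is the Htt-null line (genotype Htt-/-), in which the promoter and exon 1 of Htt had been deleted on both alleles. Each line was sampled on 3 collection dates, which gave 6 libraries, and libraries with the same replicate number in both lines share a date. All cells were kept undifferentiated on gelatin without feeder cells, in medium with serum, LIF and inhibitors of MEK, GSK3 and the FGF and VEGF receptors. Each genotype is represented by a single line, so the genotype and any other difference between these lines cannot be told apart. The error given here is the spread between collections of a line, which the tests without a block also borrow in part from other genes. In fits with the collection date as a block it is the spread of same-date differences, mostly borrowed from other genes.

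Basement membranes are thin sheets of matrix under epithelia. Laminins, each built of an α, a β and a γ chain, polymerise at the cell surface through integrins and dystroglycan. Type IV collagen forms a second network, and nidogens and perlecan link the networks. In the early mouse embryo the laminin made of Lama1, Lamb1 and Lamc1 chains is among the earliest to be assembled, and mESCs make laminin themselves. Sparc binds collagen IV, fibronectin (Fn1) is an interstitial and serum matrix protein bound by integrins, and osteopontin (Spp1) is a secreted integrin-binding phosphoprotein.

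Col4a1 and Col4a2 are a head-to-head pair on chromosome 8 whose products assemble together, and their promoter sequence is shown because these were the members that fell in HN cells in the test with the collection date as a block. In GRCm38 with GENCODE M21, Col4a1 lies on the minus strand from 11198423 to 11312826, and Col4a2 on the plus strand from 11312805 to 11449287. Their annotated exons overlap by 22 bp on opposite strands. RefSeq promoter windows for GRCm38.p6, from 250 bases before to 50 bases after a start, are printed 5′ to 3′ on the strand of each gene, at chr8:11312777-11313076 for Col4a1 and chr8:11312555-11312854 for Col4a2. Capitals mark the 78 bases that the windows share.
Col4a1: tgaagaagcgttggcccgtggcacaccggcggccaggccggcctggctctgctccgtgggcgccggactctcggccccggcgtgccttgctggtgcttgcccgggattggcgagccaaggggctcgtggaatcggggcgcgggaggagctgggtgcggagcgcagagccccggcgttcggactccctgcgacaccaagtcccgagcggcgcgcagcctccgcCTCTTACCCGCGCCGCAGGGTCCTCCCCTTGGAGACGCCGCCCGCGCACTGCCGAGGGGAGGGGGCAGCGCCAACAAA
Col4a2: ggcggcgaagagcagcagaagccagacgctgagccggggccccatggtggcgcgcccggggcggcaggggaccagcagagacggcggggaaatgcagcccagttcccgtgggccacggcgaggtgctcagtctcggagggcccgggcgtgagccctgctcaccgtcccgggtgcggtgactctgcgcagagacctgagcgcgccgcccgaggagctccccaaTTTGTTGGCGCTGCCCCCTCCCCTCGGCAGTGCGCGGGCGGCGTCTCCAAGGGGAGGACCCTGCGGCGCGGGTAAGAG
The GC content was 74% in the Col4a1 window and 73.7% in the Col4a2 window. Searched on both strands, the letters CCAAT occurred once in each of these windows, whereas GGGCGG occurred once in that of Col4a1 and 3 times in that of Col4a2. Over 32851 promoter windows of the same length, 37.4% held CCAAT and 35.7% held GGGCGG. Windows were present for 7 of the 10 genes. The one at the annotated start of Spp1 held CCAAT once and TATAAA once, the latter being found in 13.6% of all windows. Such matches describe the letters only.

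The targeted gene was read first. Htt had normalized counts of 230, 257 and 199 in R1 and of 18.3, 58.1 and 54.2 in HN replicates 1 to 3, a log2 fold change of -2.52 ± 0.37 (SE) with limma (adjusted p = 0.0141). Every HN library was below every R1 library. Between 1640391 and 3866717 reads were counted per library, and the libraries of replicate 3 had the most genes with at least 1 read in each line (20675 in R1 and 20542 in HN, against 18133 to 19083 in the others).

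HN cells had higher levels of Lama1, Lamc1, Fn1 and Spp1 and lower levels of Col4a1 in every library, while Nid1 was nearly level between the lines. In the comparison of all libraries with limma, which takes no account of the collection date, none of the 10 genes had an adjusted p under 0.05 together with an absolute log2 fold change above 1, the condition for a gene to be called. Over the 14276 genes tested, 0.119% were called higher and 0.126% lower in HN. At an unadjusted p under 0.05, 4 members were higher (3.15% of all genes) and 2 were lower (2.75%). edgeR also called 0 members, against 0.112% of all genes higher and 0.126% lower, and DESeq2 called 1, Lama1, against 0.329% higher and 0.231% lower.

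Because the labels tie the replicates by date, the date was also entered as a block. With this block Lama1 was called higher (0.911% of all genes) and Col4a1 lower (1.04%), and edgeR with the block called these as well (0.925% and 1.06%). At any fold change, 5 members rose (Lama1, Lama5, Lamc1, Fn1 and Spp1), against 5.46% of all genes, and 2 fell (Col4a1 and Col4a2), against 4.02% (9.48% in either direction). The fit with the block has 2 residual degrees of freedom and borrows most of its error estimate from other genes of like level. With the block but with each gene's error moderated towards a common value in place of that trend, 0 of these genes and 0 of all tested genes passed, with adjusted p from 0.173 for Lama1 to 0.289 for Lama5 among the 7. The words rose and fell refer to the test with the block and the trend. In bulk RNA, fewer cells making a transcript and less of it per cell cannot be told apart.

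**Figure D1:**
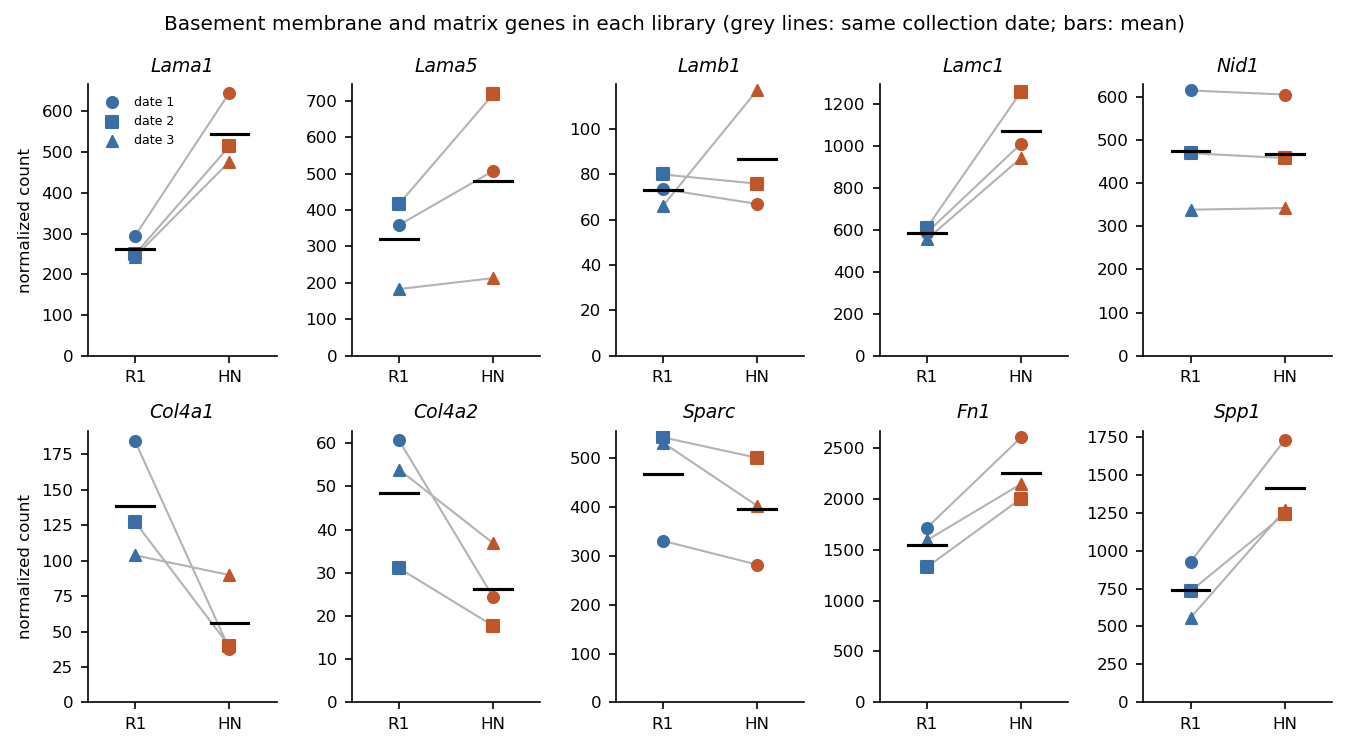
Normalized counts (vertical axes, linear and starting at 0) of the 10 genes in the R1 and HN libraries. Symbols give the collection date, grey lines join libraries of the same date and bars are line means of 3 libraries. Lama1, Lamc1, Fn1 and Spp1 show no overlap between lines, with HN higher, and Col4a1 shows none with HN lower.

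Lama1, the α chain of the embryonic laminin, lies on chromosome 17 (plus strand, 67697259 to 67822647). It had normalized counts of 295, 250 and 244 in R1 and 646, 515 and 477 in HN. The lowest HN library was above the highest R1 library. Means were 263 ± 27.8 and 546 ± 88.9 (SD, n = 3), a ratio of 2.08. Its log2 fold change was 1.04, with an SE of 0.19 without the block (limma adjusted p = 0.0612) and 0.10 with it (adjusted p = 3.17e-09). Differences within the pairs of the same date were 1.13, 1.04 and 0.96. Once line and date were taken out, 0.387% of its spread was left, the smallest share among the members after that of Nid1 (0.101%).

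Lamc1, the γ chain that most laminins share, lies on chromosome 1 (minus strand, 153218922 to 153332786). Its counts were 586, 609 and 554 in R1 and 1009, 1255 and 941 in HN, again with no overlap between the lines. The mean rose from 583 ± 27.5 to 1068 ± 165 (SD, n = 3), by 1.83 times. This was a log2 fold change of 0.86 ± 0.093 (SE with the block), with a limma adjusted p of 2.26e-08 with and 0.134 without the block. DESeq2 without the block gave an adjusted p of 1.15e-04. The pairs differed by 0.78, 1.04 and 0.76.

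Lamb1, the β chain of the same trimer, is on chromosome 12 (plus strand, 31265234 to 31329644) and did not follow them. Its counts were 73.5, 79.9 and 66.0 in R1 and 66.9, 75.8 and 117 in HN. Only the HN library of replicate 3 lay above the R1 range, and the pairs differed by -0.13, -0.07 and 0.82. On the log2 scale the fold change was 0.20, with a 95% interval of -0.16 to 0.57 with the block (limma adjusted p = 0.575), and it was -0.10 without replicate 3. Per exonic length, Lamb1 was the lowest of the laminin members in both lines, at 7.37 normalized counts per kb in R1 and 8.73 in HN. Lamc1 stood at 70.5 and 129 per kb and Lama1 at 27.2 and 56.4.

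The balance of the chains was compared by ratios per kb within each library, with an exact two-sided permutation test whose smallest p with 3 against 3 libraries is 0.1. Lama1 to Lamb1 was 4.11, 3.21 and 3.78 in R1 and 9.89, 6.95 and 4.17 in HN (exact p = 0.1). Lamc1 to Lamb1 was 9.58 ± 0.461 in R1 and 15.9 ± 5.45 in HN (SD, n = 3 libraries, exact p = 0.2). Lama1 to Lamc1 was 0.386 ± 0.0406 and 0.443 ± 0.0990 (exact p = 0.5). Of 10 ratios computed, 4 reached the smallest possible p, for an adjusted p of 0.25, so the design could not place any of them past 0.05.

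Lama5, the α chain of a laminin found in many epithelia, lies on chromosome 2 (minus strand, 180176373 to 180225859). It had counts of 359, 416 and 183 in R1 and 507, 717 and 213 in HN. The lines overlapped, since both libraries of replicate 3 were far below the others. Within dates HN was higher each time, by 0.50, 0.78 and 0.22 on the log2 scale. The log2 fold change of 0.50 passed with the block (SE 0.11, limma adjusted p = 0.00219) but not without it (SE 0.41, adjusted p = 0.99998), and it no longer passed when replicate 2 was left out of the blocked fit (0.36, adjusted p = 0.315). Line accounted for 13.5% of its sum of squares and date for 83.6%.

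Nid1, which joins the γ1 laminin chain to collagen IV, is on chromosome 13 (plus strand, 13437551 to 13512269). Its counts were 614, 469 and 338 in R1 and 605, 458 and 342 in HN. The values of the lines matched date by date, with pair differences of -0.02, -0.03 and 0.02. HN differed from R1 by -0.01 on the log2 scale, and its 95% interval with the block ran from -0.21 to 0.19 (limma adjusted p = 0.963). Date took 99.9% of its spread. The ratio of Nid1 to Lamc1 per kb was 0.965 ± 0.264 in R1 and 0.527 ± 0.162 in HN (SD, n = 3, exact permutation p = 0.1).

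**Figure D2:**
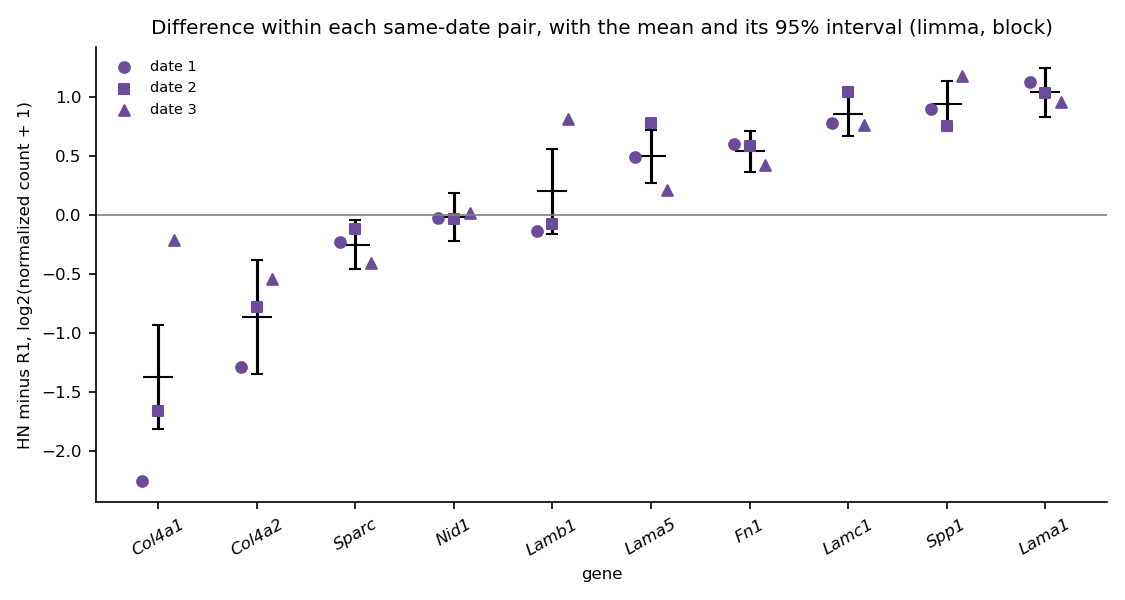
HN minus R1 on the log2(normalized count + 1) scale (vertical axis) for the 10 genes (horizontal axis). Symbols are the 3 pairs of the same date, and the bar is their mean with the 95% interval of the limma fit with the block. The interval rests mostly on the error of other genes of like level, more than on the spread of the plotted pairs. Lama1 has the highest mean, 1.04, and Col4a1 the lowest, -1.37, with pairs from -2.26 to -0.21.

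Col4a1, the α1 chain of type IV collagen, moved the other way. Its normalized counts were 184, 127 and 104 in R1 and 37.7, 39.7 and 89.9 in HN. Each HN library was below the lowest R1 library, but the HN library of replicate 3 came close to it. Means were 138 ± 41.3 and 55.8 ± 29.6 (SD, n = 3), so R1 had 2.48 times the HN level. The log2 fold change was -1.37 ± 0.22 (SE with the block) with a limma adjusted p of 2.81e-05 with and 0.273 without the block. The pairs differed by -2.26, -1.66 and -0.21, an uneven fall. The SE with the block rests mostly on other genes of like level, more than on these pairs. With the block and no trend, the limma adjusted p was 0.283. Without HN replicate 3 the fold change was -1.77 and was called with no block (adjusted p = 0.0149). With the block and without replicate 1 it was -0.93, short of the fold that a call needs (adjusted p = 1.03e-04).

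Col4a2, the α2 chain, had counts of 60.7, 31.1 and 53.9 in R1 and 24.3, 17.7 and 36.8 in HN. The lines overlapped, since the R1 library of replicate 2 was below the HN library of replicate 3, but HN was the lower member of each pair, by -1.28, -0.78 and -0.54. Its log2 fold change of -0.87 ± 0.24 (SE) passed with the block (limma adjusted p = 0.0146) and not without it (0.768). It rested on between 20 and 57 reads per library. It did not pass in the blocked fit without replicate 1 (-0.66, adjusted p = 0.172) or without replicate 2 (-0.91, adjusted p = 0.077). Per kb, the ratio of Col4a1 to Col4a2 was 2.68 ± 0.962 in R1 and 1.84 ± 0.414 in HN (SD, n = 3, exact permutation p = 0.3).

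The pairs of the collagen genes were set beside their chromosome. The 416 genes of chromosome 8 with a mean of at least 50 had a median log2 difference of -0.20, against 0.02 for all 7659 such genes. This median was -0.31, -0.26 and -0.02 in the pairs of dates 1, 2 and 3, and that of all 7659 genes was -0.06, 0.03 and 0.09, so both were highest at date 3, as were the differences of the 2 collagen genes. Of the 8 other tested genes within 1 Mb of the collagen pair, the median difference was -0.14 (range -1.47 to 0.30). Among these, Cars2, a mitochondrial tRNA synthetase, had -0.77 (adjusted p = 5.02e-04) and Ankrd10 had -0.54 (adjusted p = 0.00526) with the block in limma. They are named as the only neighbours that passed, and were chosen after their values were seen. The part of the chromosome in the collagen values was not tested.

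**Figure D3:**
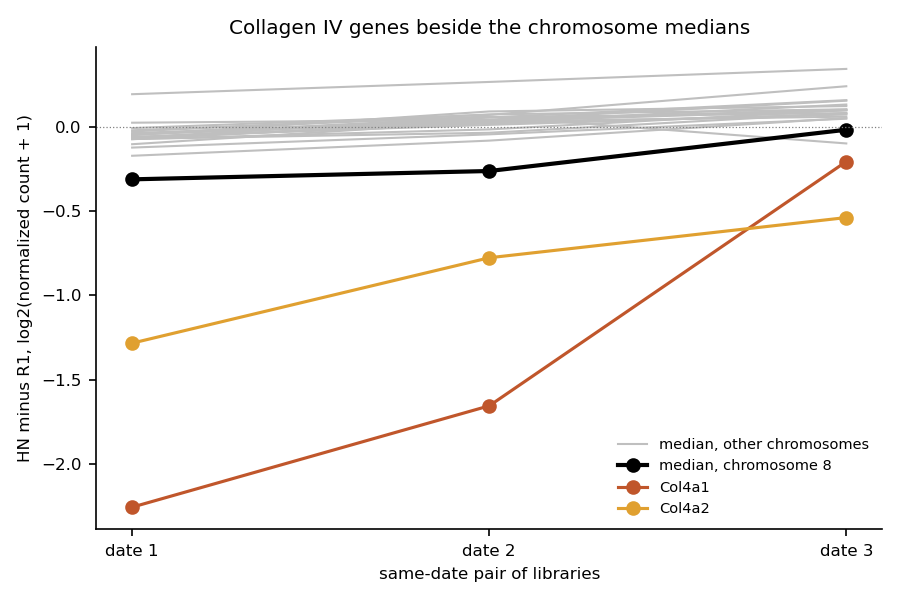
HN minus R1 difference, log2(normalized count + 1), in each pair of the same date (horizontal axis) for Col4a1, Col4a2, the median of chromosome 8 and the medians of the other chromosomes (grey). Lines only join the values of a gene or chromosome. Col4a1 goes from -2.26 to -0.21 while the chromosome 8 median goes from -0.31 to -0.02.

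The laminin chains Lama1 and Lamc1 thus differed in the opposite direction from Col4a1 within the same libraries. The ratio of Lamc1 to Col4a1 per kb was 2.87, 4.32 and 4.82 in R1 and 24.1, 28.5 and 9.45 in HN. The ratio of Lama1 to Col4a1 was 1.23, 1.52 and 1.81 in R1 and 13.2, 9.995 and 4.09 in HN. Lama1 and Lamc1 were higher and Col4a1 lower in every HN library, so both ratios had to separate the lines. Their exact permutation p of 0.1, the smallest possible, was thus fixed in advance and adds no support. HN replicate 3 had the lowest HN value of each ratio.

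Fn1 encodes fibronectin (chromosome 1, minus strand, 71585520 to 71653200) and had counts of 1713, 1326 and 1590 in R1 and 2600, 2000 and 2143 in HN. The lowest HN library was above the highest R1 library. R1 averaged 1543 ± 198 and HN 2248 ± 313 (SD, n = 3), a ratio of 1.46. Pair differences were close to each other at 0.60, 0.59 and 0.43. The log2 fold change of 0.54 ± 0.086 (SE) passed with the block (limma adjusted p = 2.86e-05) and not without it (0.62). Apol7d overlaps 2.50% of its exonic length on the opposite strand, and such reads cannot be told apart without strand.

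Spp1, osteopontin (chromosome 5, plus strand, 104435118 to 104441050), was the member with the highest level per length in both lines, at 448 ± 112 normalized counts per kb in R1 and 857 ± 167 in HN (SD, n = 3). Its counts were 926, 733 and 558 in R1 and 1729, 1240 and 1266 in HN, with no overlap. The ratio of means was 1.91. The log2 fold change was 0.95 ± 0.093 (SE with the block), with a limma adjusted p of 3.19e-09 with and 0.215 without the block. DESeq2 without the block gave an adjusted p of 0.00495. The pairs differed by 0.90, 0.76 and 1.18. An annotated gene on the same strand, Gm42793, covers 18.8% of the exonic length of Spp1. Of the 50-base stretches of Spp1 transcripts, 11.6% also occur in it. Gm42793 is absent from the deposited table, and how reads there were assigned is not known.

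Sparc, a collagen-binding protein (chromosome 11, minus strand, 55394500 to 55423183), had counts of 331, 543 and 532 in R1 and 282, 501 and 403 in HN. HN was lower in each pair, by -0.23, -0.12 and -0.40, but the lines overlapped. The log2 fold change of -0.25 did not pass (limma adjusted p = 0.13 with the block), and its 95% interval with the block was -0.46 to -0.04. Date accounted for 85.2% of its spread, both libraries of replicate 1 being the lowest.

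**Figure D4:**
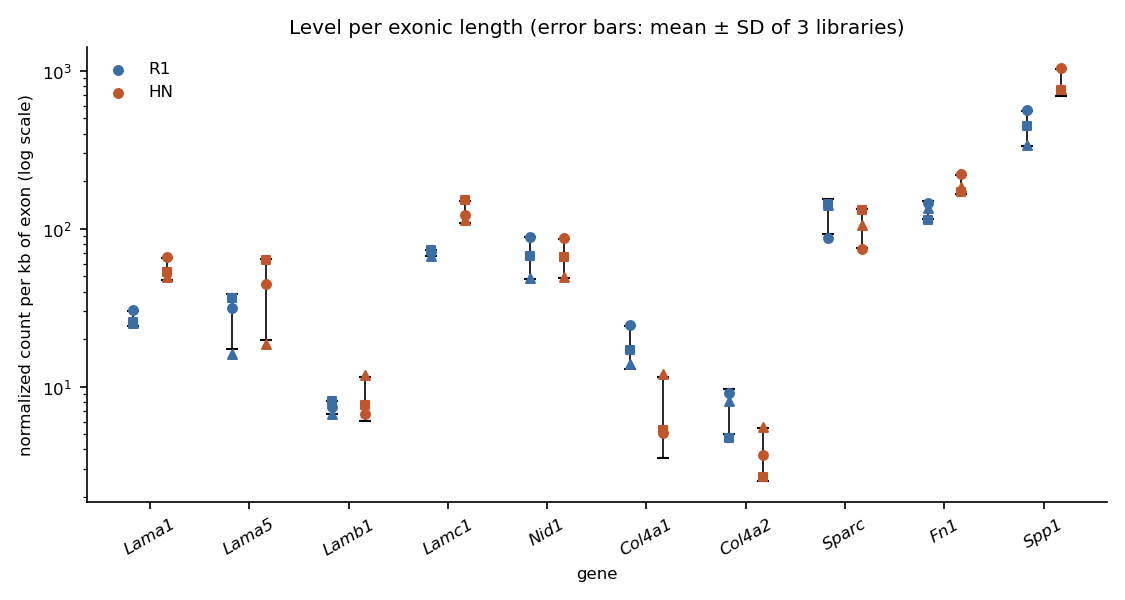
Level of the 10 genes as normalized counts per kb of exon (vertical axis, log scale) in R1 and HN. Points are libraries and error bars the mean ± SD of 3 libraries. Means span from 3.97 per kb for Col4a2 in HN to 857 for Spp1 in HN.

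In R1, the order of the means per kb was Spp1 (448), Fn1 (132), Sparc (124), Lamc1 (70.5), Nid1 (68.2), Lama5 (28.1), Lama1 (27.2), Col4a1 (18.5), Lamb1 (7.37) and Col4a2 (7.34). The pairs of neighbours Fn1 and Sparc, Lamc1 and Nid1, Lama5 and Lama1, and Lamb1 and Col4a2 had overlapping libraries. In HN the order was Spp1 (857), Fn1 (192), Lamc1 (129), Sparc (104), Nid1 (67.4), Lama1 (56.4), Lama5 (42.1), Lamb1 (8.73), Col4a1 (7.47) and Col4a2 (3.97). There, the libraries of Lamc1 and Sparc, Sparc and Nid1, Nid1 and Lama1, Lama1 and Lama5, Lamb1 and Col4a1, and Col4a1 and Col4a2 overlapped.

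Line and date were then set side by side. Over the 10 genes the median share of the sum of squares (log2 values) was 60.4% for line and 23.5% for date, and over all tested genes it was 9.96% for line and 68.3% for date. Lama1 and Lamc1 were at the line end, with 91.7% and 91.5% for line, whereas Nid1, Sparc and Lama5 were at the date end. For Lamb1, 62.9% belonged to neither. In limma, 7 members differed by date (Lama1, Lama5, Col4a2, Nid1, Sparc, Fn1 and Spp1), against 46.0% of all genes, and 0 did so without the trend. These genes had no common date order. Lama1, Nid1, Fn1 and Spp1 were highest at date 1 in R1 and HN alike, Lama5 was highest and Col4a2 lowest at date 2 in both, and Sparc was lowest at date 1 in both.

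**Figure D5:**
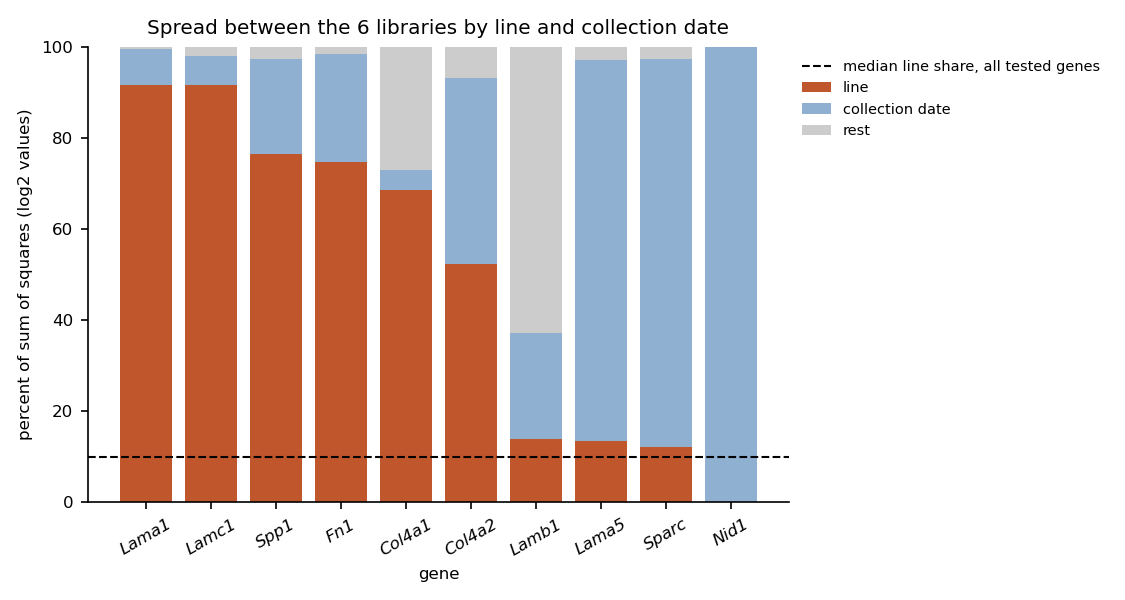
Share of the sum of squares of log2 values over the 6 libraries (vertical axis, percent) that went to line, to collection date and to the rest for each gene. The dashed line is the median share of line over all tested genes, 9.96%. Lama1 and Lamc1 exceed 91% for line, and Nid1 has 99.9% for date.

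HN was higher in all 3 pairs for 5 members (20.3% of all genes) and lower in all 3 for 3 members (21.1%). All HN libraries were above all R1 libraries for 4 members (5.23% of all genes) and below them for 1 (5.54%). The median log2 difference of the members was 0.35 and that of all tested genes -0.01.

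Of 74 other genes of the matrix, its receptors, its processing and its turnover, 68 were tested. Their median log2 difference was 0.00, and none was called without the block in limma, edgeR or DESeq2. At an unadjusted p under 0.05 in limma, 2 were higher and 2 lower, against 3.15% and 2.75% of all genes. With the block 5 rose and 5 fell at any fold change, against 5.46% and 4.02% of all genes, and 1 of these, Mmp15, was called lower, against 1.04% of all genes. The counts by role that follow are small and are to be read against the same shares.

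Among the other laminin chains, Lamb2, a β chain that can stand in for Lamb1, had means of 53.1 ± 15.9 and 52.9 ± 17.6 (SD, n = 3). None of the 3 other collagen IV chains tested passed. They were near the floor, with mean counts of 12.5 and 10.2 for Col4a3 and of 16.5 and 5.09 for Col4a5 in R1 and HN, so a difference in them was hardly detectable at this depth.

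Of 15 other basement membrane components tested, 2 rose and 0 fell with the block, against 5.46% and 4.02% of all genes. Perlecan (Hspg2), the heparan sulfate proteoglycan of basement membranes, had counts of 265, 343 and 166 in R1 and 420, 609 and 234 in HN. Its lines overlapped but HN was higher in each pair (log2 fold change 0.66, limma adjusted p = 5.42e-05). Nid2, the second nidogen, went from 662 ± 185 to 849 ± 75.8 (SD, n = 3, log2 fold change 0.40, limma adjusted p = 0.00847 with the block). It lies on chromosome 14, whose genes of mean at least 50 had a median log2 difference of 0.28. The part of the chromosome in its values was not tested. Col18a1, the collagen that holds endostatin, had 472 ± 76.2 and 404 ± 124 and did not pass.

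Of 16 receptors tested, 1 rose and 2 fell with the block, against 5.46% and 4.02% of all genes. Bcam, the Lutheran receptor, which binds the laminin α5 chain, had counts of 472, 561 and 263 in R1 and 579, 955 and 575 in HN (0.73, limma adjusted p = 1.91e-05). Itga3, an integrin subunit for laminins, had 145, 185 and 142 in R1 and 63.3, 126 and 91.0 in HN, with every HN library lower (-0.79, limma adjusted p = 3.31e-04). Itga9, an integrin subunit with osteopontin among its ligands, fell by 0.64 on the log2 scale (limma adjusted p = 0.0119). Itgb1, the β subunit most of these pair with, had 458 ± 120 and 418 ± 40.1 (SD, n = 3) and did not pass.

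Of 14 genes of collagen processing and crosslinking, 0 rose and 2 fell with the block, against 5.46% and 4.02% of all genes. Serpinh1, the collagen chaperone HSP47, had counts of 155, 85.8 and 47.2 in R1 and 52.3, 57.4 and 33.6 in HN. R1 had 2.01 times the HN mean, the lines overlapped, and the log2 fold change was -0.87 (limma adjusted p = 0.00268 with the block). Tgm2, a crosslinking transglutaminase, fell by 0.72 (adjusted p = 0.0201 in the same limma fit). P4hb, the β subunit of prolyl hydroxylase, and Plod2, a lysyl hydroxylase, had log2 differences of 0.22 and 0.17 and did not pass.

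Among 9 proteases and inhibitors, Mmp15, a membrane-bound metalloproteinase, fell (31.6 ± 11.8 to 17.5 ± 12.8, SD, n = 3, log2 fold change -1.01, limma adjusted p = 0.0269 with the block). Its call was absent from the edgeR fit with the block, where it passed with a fold change under the limit. Mmp15 lies on chromosome 8, with the median of -0.20 given above. Mmp14 had a log2 difference of 0.18 and the inhibitor Timp1 of -0.01, and neither passed. Of 4 other matricellular genes tested, Cyr61 rose from 21.2 ± 10.97 to 39.7 ± 13.8 (SD, n = 3, 0.98, limma adjusted p = 0.0139 with the block), and Ctgf, at 11.9 and 13.7, did not pass.

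Markers of other cells were read beside these genes. Of 17 markers of primitive or parietal endoderm, cells that make much laminin and collagen IV, none was at 0 in all libraries, and their summed normalized count was 199 to 391 in R1 and 164 to 362 in HN. The defining markers Gata4, Gata6, Sox17 and Sox7 summed to 25.9 to 128 in R1 and 26.2 to 113 in HN, and were highest at date 3 in both lines. At that date Lama1 was lowest in both lines, whereas Lamb1 and Col4a1 were highest in HN and lowest in R1. Hnf4a alone of this list passed with the block, with 46.8, 28.1 and 27.0 in R1 and 1.22, 3.54 and 7.58 in HN (limma adjusted p = 9.68e-06). Of 10 fibroblast markers the sum was 117 to 292 in R1 and 68.0 to 191 in HN. The defining ones Col1a1, Col1a2, Col3a1, Lum and Dcn summed to 14.1 to 59.3 in R1 and 7.80 to 45.5 in HN, none being at 0 in all libraries. Their sum was likewise highest at date 3 in both lines, so that peak was not particular to the endoderm markers. The libraries of date 3 also had the most genes with at least 1 read in each line. Of 7 fibroblast markers tested, 0 rose and 2 fell with the block, against 5.46% and 4.02% of all genes. These were Thy1 and Pdgfrb, lower in every HN library, as Col4a1 was. Their log2 fold changes were -1.54 and -1.39 (limma adjusted p = 0.00112 and 9.33e-05 with the block). The others did not pass, at 0.11 for Col3a1, -0.006 for Col5a1, -0.13 for Col1a1, -0.33 for Twist2 and -0.45 for Col1a2. The part of these cells in the results was not tested. The 8 mESC markers summed to 12129 to 17914 in R1 and 12845 to 17304 in HN.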

How the data were processed

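Total RNA from 3 batches of R1 and HN mESCs was made into libraries with a TruSeq RNA v2 kit, which does not mark strand. Per the labels and the study's methods, STAR (alignment to mm10/GRCm38), Picard (duplicate removal), HTSeq (exon read counts) and DESeq2 (size factors) were used by the authors (versions and gene annotation not given in the sources used here). The deposited signal is thus a normalized count per gene. All values of each library (100%, tolerance 0.001) were whole multiples of 1 read, so reads were recovered for depth and for edgeR 4.0.16 (quasi-likelihood test) and DESeq2 1.42.0. Depth was 1640391 to 3866717 reads. Unused columns of per-sample values numbered 0, and 27 lines with a date in place of a gene name carried no name.

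limma 3.58.1 (trend, empirical Bayes, R 4.3.3) was run on log2(normalized count + 1) over 14276 genes of mean at least 5, with Benjamini-Hochberg adjustment over all of them. The scale understates the changes of low genes. p-values without the block rest on the spread between collections, in part borrowed from other genes. Those with the block rest on the spread of same-date differences, mostly borrowed from other genes. Deviations from line means correlated by 0.25, 0.69 and 0.77 within dates (collection dates in the labels) and by -0.71 to 0.34 between dates. R1 replicate 1 correlated more with HN replicate 2 (0.34) than with HN replicate 1 of its own date (0.25). Replicates of a line differed by more than counting noise (chi-square per degree of freedom 4.70 to 9.91). Members, partner lists and marker lists were chosen with earlier results of these data known, and Lama1 and Spp1 also stand in a list the study drew from these libraries, so their presence there is no independent evidence. Named were all members, Htt, partners that passed with the block and the 2 partners per group with the highest level per exonic kb. Defining markers and the 5 genes nearest in pattern to the mean of Lama1, Lamb1 and Lamc1 were named too. The scripts were tested on simulated data. A partner gene that the rule names is not reported here.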

Additional observations from a re-analysis of the deposited data

How the results depend on the processing

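The 10 genes kept the direction of their log2 fold change under all alternatives except Lamb1 and Nid1. Lamb1 ran from -0.033 to 0.37 when 1 library was left out and was -0.10 in the blocked fit without replicate 3. Nid1 ran from -0.23 to 0.19 when 1 library was left out, and was 0.000596 with median centring, with or without the block. The number of genes called was 35 without the block, 278 with the replicate block, 284 with edgeR and the block, 80 with DESeq2, 0 without the variance trend, 0 with the block and no trend, 297 with the block and median centring, and 9 to 56 when 1 library was left out. With the block it was 291 without replicate 1, 180 without replicate 2 and 380 without replicate 3, fits with 1 residual degree of freedom. Median centring called 27 higher and 18 lower, against 17 and 18. Of the 10 genes, 0 were called in limma without the block (unadjusted p under 0.05: 6), 2 with the block in limma or edgeR and with the block and median centring, 1 with DESeq2, without the filter or with median centring (Lama1 in each), 0 to 1 when 1 library was left out, and 1 to 3 with the block when 1 date was left out. At any fold change in limma, 7 passed with the block and 0 with no replicate block. With the block, 0 passed with no trend and 5 to 7 when 1 date was left out. Without the block, Lama1, Lamc1 and Spp1 passed in DESeq2 (adjusted p from 6.15e-05 to 0.00495), and Lama1 and Lamc1 in limma with median centring. Of the 68 partners, 0 were called without the block, 1 with it, 0 whenever 1 library was left out and 1 to 5 with the block when 1 date was left out. Without the trend, 0 of the 10 genes differed by date, against 7. Limits came from 3 collections per line, from 20 to 57 reads for Col4a2, and from duplicate removal without molecular identifiers.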

Other observations

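Among 7634 genes with a mean of at least 50, the pattern over the 6 libraries most like the mean centred log2 value of Lama1, Lamb1 and Lamc1 was that of Hspa8, a constitutive Hsp70 chaperone (Pearson's r = 0.991), followed by Pbk, a mitotic kinase (0.991), Hist1h2bm, a replication-dependent H2B gene (0.990), Snrpf, an Sm protein of the spliceosome (0.985), and Pnrc1, a nuclear receptor coregulator (0.983). Hspa8 had normalized counts of 5819, 6013 and 5257 in R1 and 7797, 8383 and 8093 in HN. Hist1h2bm had 156, 134 and 111 in R1 and 600, 573 and 518 in HN. Snrpf had 60.7, 77.7 and 53.9 in R1 and 265, 228 and 246 in HN. Reads of it and of Hist1h2bm may be affected by near-identical copies, which was not examined. These correlations describe 6 libraries of 2 lines that share dates, and the genes were picked for the likeness. The likeness is to the mean and not to each chain. Lamb1 correlated by 0.19 with Lama1 and by 0.25 with Lamc1, whereas Lama1 and Lamc1 correlated by 0.92.

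Of the 8 mESC markers, 4 rose and 1 fell with the block, against 5.46% and 4.02% of all genes. Zfp42 was the one that fell, with every HN library lower (2092 ± 258 to 1209 ± 129, SD, n = 3). Klf4, Esrrb, Nanog and Dppa5a rose, by 0.52, 0.37, 0.28 and 0.27 on the log2 scale. Their limma adjusted p with the block ran from 8.96e-04 for Klf4 to 0.0389 for Dppa5a. The lines overlapped for Esrrb and Dppa5a. Without the block no mESC marker passed in limma. Pou5f1, Sox2 and Tdgf1 did not pass with the block either, at 0.00052, -0.0021 and -0.18.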
